A study of Sus scrofa with 14 samples.

Results

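Dividing nuclei of the pig mammary gland were chosen by their UMIs (unique molecular identifiers, each standing for 1 captured RNA molecule) in genes of mitosis. A nucleus was kept when at least 300 genes were detected in it, and it was called dividing when at least 3 of the rule's genes TOP2A, CENPF, TPX2, HMMR, KIF11, BUB1B, KIF15, ASPM and DIAPH3 had a UMI. The gland files carry the symbol of 8 of these 9 genes. BUB1B is listed there by its identifier only, so it took no part in the choice. The rule found 3328 dividing nuclei among 127926 kept nuclei. Single-nucleus RNA-seq libraries had been made from the glands of 10 sows, with 2 sows at each of 5 stages. The stages were day 90 of gestation (G90), the day lactation began (L0), day 20 of lactation (L20), and day 2 and day 7 of natural involution (PI2 and PI7). The labels give no genotype and no treatment. The sows were multiparous and in a second breeding cycle, and tissue was cut from a single region of the right side, so a library shows a single site of the gland.

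A cell that divides copies its DNA in S phase, condenses its chromosomes, builds a spindle that pulls the copies apart and then pinches into daughter cells. RNAs of the genes for spindle and chromosome work build up towards mitosis and are broken down after it, so in a snapshot of single nuclei they mark cells in late S, G2 and M phase. In the mammary gland the epithelium multiplies during pregnancy under progesterone, prolactin and local signals, the luminal cells then turn to making milk, and after weaning the alveoli regress. Tissue macrophages, lymphocytes and stromal cells can divide in the gland as well.

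The genes that chose the nuclei do different jobs in this sequence. TOP2A untangles DNA strands, CENPF and BUB1B act at the kinetochore where chromosomes meet the spindle, TPX2, HMMR and ASPM organise the spindle, KIF11 and KIF15 are motors that push its poles apart, and DIAPH3 is a formin that builds actin filaments. Genes of late cell cycle are often switched by the CCAAT box, a site of the factor NF-Y, and by the CHR element TTTGAA, which is bound by the DREAM complex. Both were searched on both strands in the 200 bases before the start of each gene in RefSeq's Sscrofa11.1 annotation. CCAAT was found before 5 of the 9 genes, against 27.7% of 19556 promoters of the same length, and 4 of the 9 had 2 or more, against 7.58% of all. TTTGAA was found before TOP2A and BUB1B, against 9.39% of all promoters, and TOP2A alone of the 9 had both, against 2.79% of all. A match of letters is a description and not a site shown to be bound. The 4 promoters with 2 or more CCAAT boxes are printed 5′ to 3′ along the gene, with CCAAT or its reverse ATTGG and, in TOP2A, TTTGAA in capitals.
TOP2A, chr12:22001100-22001299, plus strand: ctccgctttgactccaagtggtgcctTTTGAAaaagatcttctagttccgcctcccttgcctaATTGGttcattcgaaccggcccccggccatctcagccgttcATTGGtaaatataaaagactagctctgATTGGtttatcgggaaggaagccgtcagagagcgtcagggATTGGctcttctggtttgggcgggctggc
CENPF, chr9:129012242-129012441, minus strand: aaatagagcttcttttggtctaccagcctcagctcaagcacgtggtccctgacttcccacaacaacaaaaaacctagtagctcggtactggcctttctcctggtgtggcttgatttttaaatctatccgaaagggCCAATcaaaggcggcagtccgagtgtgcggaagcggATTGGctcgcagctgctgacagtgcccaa
ASPM, chr10:20039681-20039880, minus strand: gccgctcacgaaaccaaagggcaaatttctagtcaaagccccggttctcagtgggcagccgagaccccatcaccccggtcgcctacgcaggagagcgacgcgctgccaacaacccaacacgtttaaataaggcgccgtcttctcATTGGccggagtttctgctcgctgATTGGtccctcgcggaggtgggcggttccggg
DIAPH3, chr11:32994855-32995054, minus strand: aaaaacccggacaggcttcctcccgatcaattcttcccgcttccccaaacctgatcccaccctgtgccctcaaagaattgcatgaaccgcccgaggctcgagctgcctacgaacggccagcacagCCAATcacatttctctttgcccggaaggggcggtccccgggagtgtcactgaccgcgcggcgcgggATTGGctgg

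Within the dividing nuclei, DIAPH3 had a UMI in 79.4% of nuclei, TOP2A in 78.2%, CENPF in 77.6%, KIF15 in 71.8%, HMMR in 69.8%, TPX2 in 66.9%, KIF11 in 66.9% and ASPM in 46.6%. In the other kept nuclei the same genes had a UMI in 0.982% (ASPM) to 3.49% (DIAPH3). These shares follow from the choice and are a description. As a background, nuclei with adipocyte markers had a UMI of these genes in 1.3% (TPX2) to 4.55% (DIAPH3) of 923 nuclei, at a median of 2429 UMIs. The DIAPH3 gene spans 502120 bases, the longest of the set. BUB1B, which the rule could not use, had a UMI in 66.8% of dividing nuclei and in 2.24% of the others. By gland its share in dividing nuclei ran from 49.7% at L20 replicate 1 to 77.3% at PI7 replicate 2, and in the other nuclei from 0.628% to 4.35%, so the gland ranges did not overlap.

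The threshold of 3 genes cut through a continuous range. Just outside it, 2121 nuclei had a UMI of 2 rule genes, and BUB1B was seen in 10.1% of them. Just inside it, 661 nuclei had 3 rule genes, with BUB1B in 29.8%, while 695 nuclei had all 8, with BUB1B in 95.4%. Depth rose along the same range, with a median of 2159 UMIs at 2 rule genes, 2302 at 3 and 5905 at 8. The BUB1B shares are thus not at equal depth, and the part of depth in them was not tested. At G90 24.9% of the dividing nuclei had all 8 genes and 16.8% had only 3. At the other stages together 8.90% had all 8 and 28.9% had only 3, though by gland PI2 replicate 1 (20.9%) and PI7 replicate 2 (18.2%) had a smaller part with only 3 than G90 replicate 1 (21.8%).

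**Figure D1:**
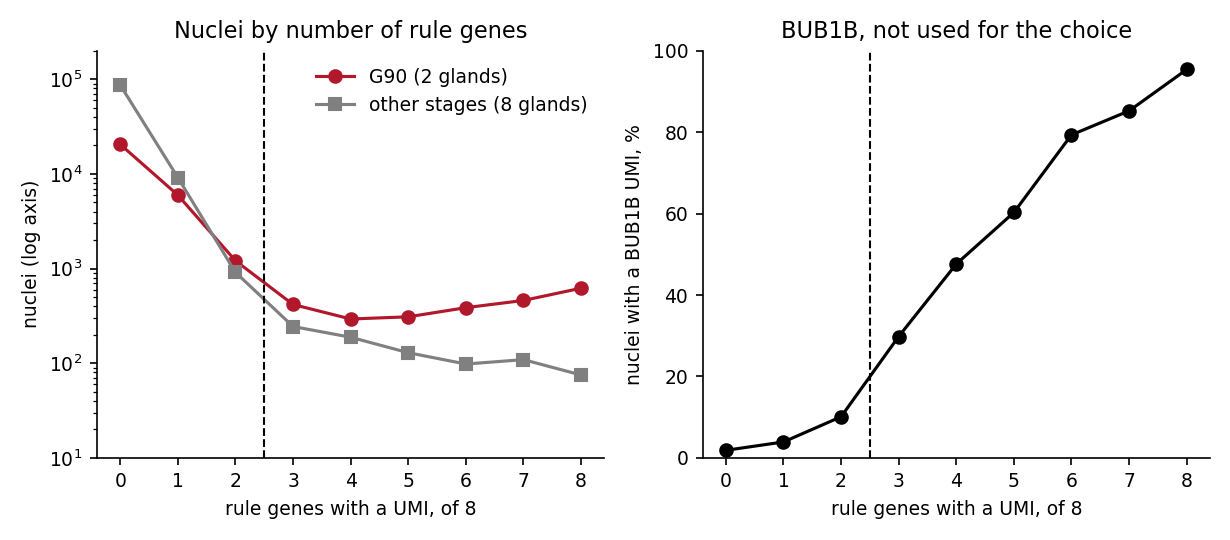
Left, the number of kept nuclei (log axis) against the number of rule genes with a UMI, from 0 to 8, for the 2 G90 glands and the 8 glands of other stages, with the threshold as a dashed line. Right, the share of nuclei with a BUB1B UMI, which climbs from 10.1% at 2 rule genes to 95.4% at 8. The median depth, not drawn, goes from 2159 to 5905 UMIs over this range.

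Libraries held 18962138 to 53165191 UMIs. Dividing nuclei were deeper than the others of their gland in 9 of 10 glands. Their median was 4242.5 against 2126 UMIs in G90 replicate 1, 4137 against 2370 in G90 replicate 2 and 5869 against 1771 in PI7 replicate 2, the widest gap. PI2 replicate 2 was the exception, with 1444 against 1645. A deep nucleus passes a threshold on detected genes more readily, so shares are also given after each nucleus was thinned to 1000 UMIs and shallower nuclei were left out. Of the dividing nuclei, 215 (6.46%) had a barcode that also occurs in another library, against 6.4% of all kept nuclei. Markers of at least 2 lineages were seen in 45.2% of dividing nuclei at G90 replicate 1 against 29.2% of its other nuclei, and in 81.8% against 24.2% at PI7 replicate 2, where 22 nuclei were dividing. L0 replicate 2 went the other way (0% against 5.76%), and PI2 replicate 2 was about equal (9.52% against 8.98%). In the remaining glands the share was higher in dividing nuclei. With such nuclei removed, PI7 replicate 2 kept 4 of its 22 dividing nuclei (a share of 0.0524%) and L20 replicate 2 kept 71 of 155 (0.698%), while L0 replicate 2 kept all 16. Of the dividing nuclei in PI7 replicate 2, 27.3% were in the top 5% of Scrublet doublet scores, against 0 to 9.52% in the other glands. Mixed droplets and greater depth cannot be told apart in these shares.

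Dividing nuclei were most frequent in late gestation. In G90 replicate 1, 606 of 11469 nuclei (5.28%, exact 95% binomial interval 4.88 to 5.71%) were dividing, and in G90 replicate 2, 1879 of 18694 (10.1%, 9.62 to 10.5%). The 2 glands of this stage held 74.7% of all dividing nuclei. At L0 the shares were 0.95% (0.780 to 1.14%, 109 nuclei) and 0.170% (0.0972 to 0.276%, 16 nuclei). At L20 they were 2.86% (2.58 to 3.16%, 370 nuclei) and 1.01% (0.859 to 1.18%, 155 nuclei). Both L20 glands lay above both L0 glands and below both G90 glands, but thinned to 1000 UMIs per nucleus L20 replicate 2, at 0.510%, lay below L0 replicate 1, at 0.683%. At PI2 the shares were 0.345% (43 nuclei) and 0.223% (21 nuclei), and at PI7 0.641% (107 nuclei) and 0.218% (22 nuclei), within the range of the L0 glands. Intervals cover counting error only, and those of the 2 glands of a stage did not overlap except at PI2.

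The mean share was 7.67% ± 3.37 (SD, n = 2 sows) at G90. L20 followed with 1.94% ± 1.31, L0 with 0.560% ± 0.551, PI7 with 0.430% ± 0.299 and PI2 with 0.284% ± 0.0861. Stage accounted for 85.4% of the variance of the share between glands (exact permutation test over the 945 splits of 10 glands into 5 pairs, p = 0.0190). The G90 glands exceeded the mean of the other 8 glands by 6.86 percentage points, at a p of 0.0222 (exact two-sided permutation test), the smallest that the 45 ways to choose 2 of 10 glands allow. The contrast was chosen with earlier results of these data known, in which cell cycle genes of epithelial nuclei were lower at L0 than at G90. Its p is therefore not independent of that choice. With G90 replicate 1 alone left out the excess was 9.25 points and with G90 replicate 2 left out 4.48 points, each at an exact permutation p of 0.111, the smallest possible with 1 G90 gland. The call by stage was lost when any 1 of 7 glands was left out, namely either gland of L0, PI2 or PI7 or L20 replicate 1 (exact p 0.0614 to 0.111), while the share of variance stayed at 84.7 to 87.2%. After thinning to 1000 UMIs the stage means kept this order, with 5.79%, 1.31%, 0.410%, 0.264% and 0.185%, and the test by stage gave an exact p of 0.0317. With 8 other mitotic genes in place of the rule's, among them BUB1, KIF23 and ANLN, stage accounted for 85.3% of the variance (exact p = 0.0138).

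**Figure D2:**
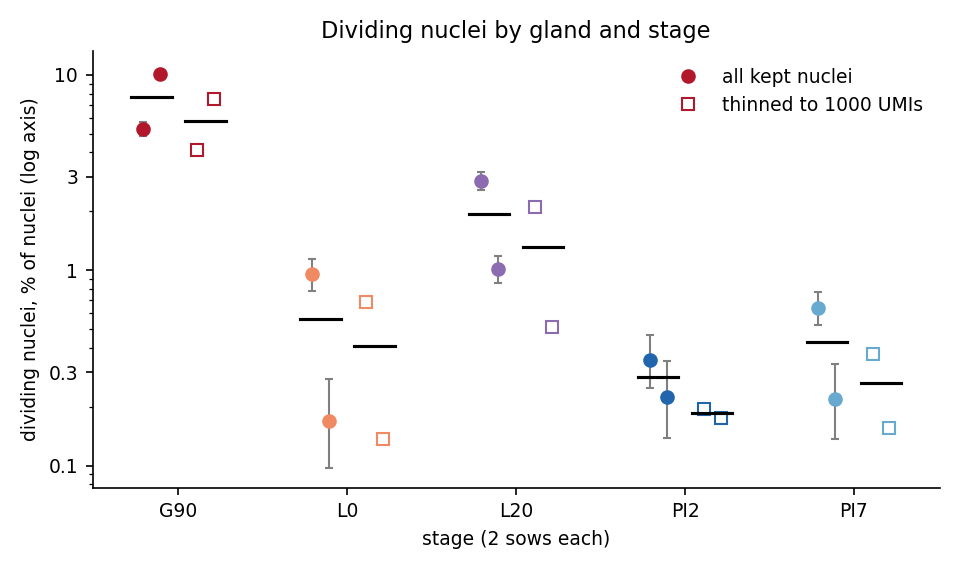
Share of dividing nuclei in percent of kept nuclei for each of the 10 glands, with exact 95% binomial intervals and the stage means. The G90 glands at 5.28% and 10.1% stand above all other glands, which lie between 0.170% and 2.86%.

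To ask which cells divided, each nucleus was put on the marker list, of 8 genes per cell type, from which it showed most genes, with at least 2 genes needed. Lists place a nucleus by its markers, and 504 of the dividing nuclei (15.1%) were on none, 149 of them because lists tied. The luminal epithelial list, with EPCAM, CDH1 and ELF5, took 2372 dividing nuclei, 71.3% of all. The macrophage list, with CD163 and CSF1R, took 159, the fibroblast list (COL1A1, DCN) 113, the endothelial list (PTPRB, PECAM1) 49, the T and NK cell list (CD3E, CD2) 43, the myoepithelial list (TP63, KRT5) 42 and the B and plasma cell list (PAX5, JCHAIN) 37. Mural cells of vessel walls accounted for 5 dividing nuclei and adipocytes for 4 of 923. Counted by single markers in all glands, EPCAM had a UMI in 41.3% of dividing and 20.6% of other nuclei, TP63 in 7.60% and 5.26%, COL1A1 in 9.62% and 12.3%, PTPRB in 3.13% and 5.72%, CD163 in 7.27% and 7.68%, and CD3E in 2.64% and 2.98%. These pooled shares are weighted to G90, and by gland EPCAM was seen less often in dividing than in other nuclei in L0 replicate 2 (12.5% against 17.7%), L20 replicate 1 (17.3% against 17.6%) and PI2 replicate 2 (4.76% against 17.9%). CD163 was seen more often in the dividing nuclei in 9 of 10 glands, CD3E in 7 and COL1A1 in 6. The pooled order of these 3 shares thus fails in most glands, but the shares are not scaled for depth. CPM scales the UMIs of a gene to the same total for every set of nuclei. By CPM, COL1A1 was lower in dividing nuclei in every gland but PI7 replicate 1 (208 against 207). CD163 was higher only in L0 replicate 1, L20 replicate 1, PI2 replicate 2 and PI7 replicate 2. CD3E was higher only in L20 replicate 1 and the L0 and PI2 glands. EPCAM was higher only in G90 replicate 1 (150 against 149) and PI2 replicate 1 (187 against 164).

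In the luminal nuclei, 434 of 5321 (8.16%) were dividing in G90 replicate 1 and 1654 of 14068 (11.8%) in G90 replicate 2. The L20 glands followed with 140 of 5150 (2.72%) and 14 of 1211 (1.16%). In the L0 glands 53 of 7617 (0.696%) and 3 of 6318 (0.0475%) were dividing, in the PI2 glands 0.612% and 0.0729%, and in the PI7 glands 0.707% and 0.0932%. Outside G90 the luminal share of replicate 2 was well under that of replicate 1 at every stage, while at G90 replicate 2 was the higher gland. Stage accounted for 94.4% of the variance of the luminal share (exact permutation p = 0.0127), which missed the threshold after adjustment over the 4 lists tested (adjusted p = 0.0508). After thinning the permutation p was 0.0148, with an adjusted p of 0.0296 over the 2 lists that then held enough nuclei.

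Fibroblast and endothelial nuclei lay below the luminal nuclei of their gland at G90, and their highest shares were also in the G90 glands. Fibroblast nuclei were dividing at 3.21% and 2.90% in the G90 glands, 1.90% and 0.552% at L20, and at most 0.702% in the other glands. Endothelial nuclei were dividing at 2.47% and 2.46% at G90, at 2.14% (5 of 234) in L0 replicate 1 and 0 of 90 in L0 replicate 2, at 1.41% and 0.576% at L20 and at no more than 0.167% in the involution glands. By stage, the exact permutation test gave an adjusted p of 0.0825 for fibroblasts and 0.109 for endothelial nuclei, so neither passed. After thinning the endothelial p was 0.0476 (permutation, unadjusted and over the 2 lists tested). Of the 4 lists tested, the myoepithelial nuclei had the widest gap between glands of a stage, with 5 of 371 (1.35%) dividing in G90 replicate 1 and 9 of 60 (15%) in G90 replicate 2, and their test by stage gave an adjusted permutation p of 0.181. At L20 they were dividing at 4.47% (19 nuclei) and 1.46% (2 nuclei). Adipocyte nuclei showed 0 of 22 and 0 of 42 dividing in the G90 glands, counts that still allow shares of up to 13.6% and 7.14% at a limit of 3 counts, with exact upper bounds of 15.4% and 8.41%. After thinning, with nuclei put on lists anew, the mean adipocyte share at G90 was 3.33% ± 4.71 (SD, n = 2 sows).

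Compared within the same gland over all 10 glands, no list differed from the luminal list after adjustment over 8 lists (exact two-sided sign-flip test, smallest adjusted p = 0.172). The fibroblast share was lower by 1.59 percentage points on average and lay below the luminal share in 8 of 10 glands (unadjusted permutation p = 0.0215), a difference of -0.996 after thinning and of -0.778 without G90 replicate 2. The macrophage share was higher by 1.85 points and lay above it in 8 of 10 glands (adjusted permutation p = 0.3125), though nuclei placed by single markers, CD163 against EPCAM, gave -0.155 points. After thinning the macrophage difference was 0.721 points, and it was 1.1 points without L20 replicate 1 and 1.2 without L0 replicate 1. Whether the gap between luminal and other nuclei differed between G90 and the other stages was tested for the 8 lists, a test added after the values had been seen. At G90 the luminal share exceeded the fibroblast share by 6.90 points, against 0.257 points on average at the other stages, and the endothelial share by 7.50 against 0.204 points. It exceeded the macrophage share by 3.67 points at G90 and lay 3.23 points below it elsewhere. A gap in percentage points can widen where the shares of all lists rise, even at a constant ratio between them. Ratios of shares were not tested. In nuclei thinned to 1000 UMIs, the change of the gap was 4.10 points for fibroblasts, 3.82 for endothelial, 4.92 for macrophage and 3.21 for adipocyte nuclei. Each had an adjusted permutation p of 0.0444, from an unadjusted 0.0222, the smallest that the 45 choices of glands allow. Unthinned, none of the 8 lists passed, and the adjusted permutation p of these 4 was 0.0593, 0.0593, 0.0889 and 0.0593. The other 4 lists passed in neither case. Thinning also put nuclei on lists anew, so it changed more than depth. The adipocyte list of G90 replicate 2 then held 3 dividing of 45 nuclei, against 0 of 42 as counted. As counted, the mural gap changed the other way (-3.31 points), and after thinning the myoepithelial (-0.40) and the B and plasma gap (-0.60) did.

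**Figure D3:**
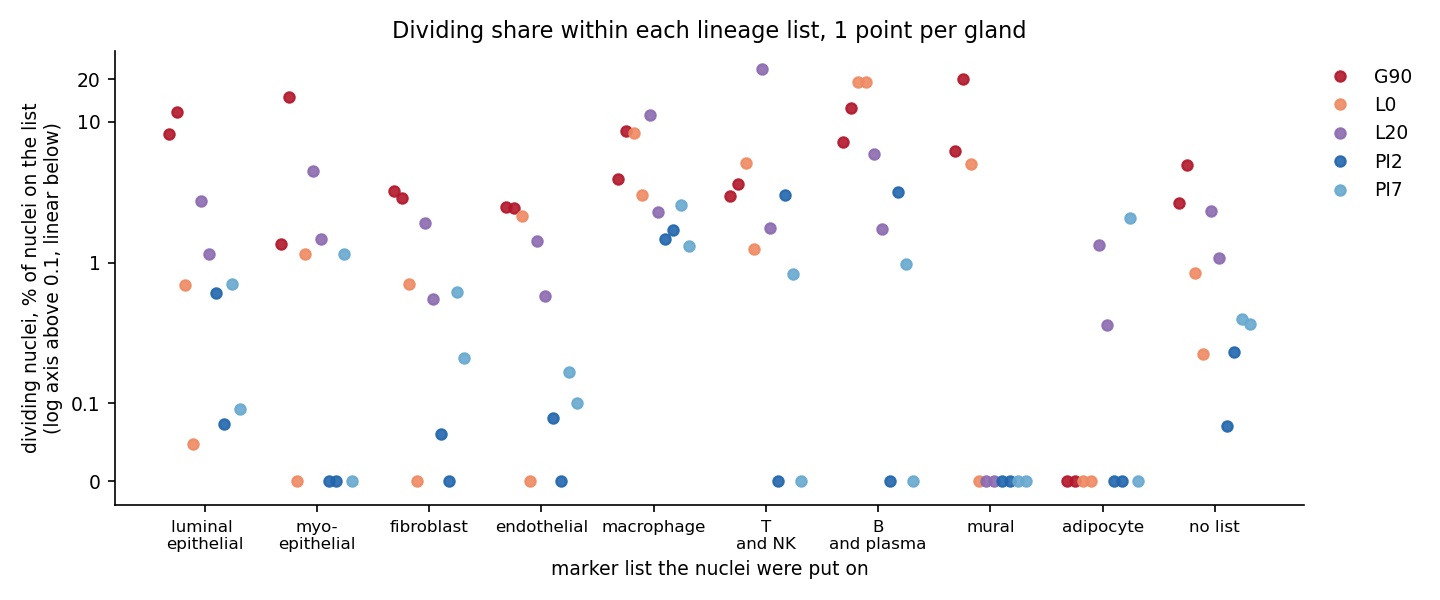
Dividing nuclei in percent of the nuclei on each marker list (log axis above 0.1%, linear below), with 1 point per gland coloured by stage. The luminal list reaches 8.16% and 11.8% at G90 and lies below 1% in the L0 and involution glands, while macrophage nuclei lie between 1.31% and 11.3% in all glands.

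The part of the dividing nuclei that was luminal varied between glands. The luminal list held 71.6% and 88.0% of the dividing nuclei in the G90 glands. In the L0 glands it held 48.6% and 18.8%, and in the L20 glands 37.8% and 9.03%. The involution glands ranged from 14.3% and 86.0% for the PI2 pair to 18.2% and 28.0% for the PI7 pair. Pooled, it held 84.0% of dividing nuclei at G90 and 33.7% elsewhere, against 0.845% and 16.4% for the macrophage list. No list passed the test of this make-up by stage, with an adjusted permutation p of 0.5 for the luminal list and 0.462 for the macrophage list, and the 10 nuclei per gland that this test needed were chosen after the counts had been seen. Between glands of a stage the luminal part differed most at PI2, where replicate 1 had 37 and replicate 2 had 3 dividing luminal nuclei. In PI2 replicate 2 the dividing nuclei also had a median of 3.77% mitochondrial UMIs, against 0.218% in its other nuclei. The share was higher in dividing nuclei in 9 of 10 glands, among them L0 replicate 2 (1.18% against 0.184%), the L20 glands (1.28% against 0.377% and 1.45% against 0.359%) and the PI7 glands (0.566% against 0.29% and 0.404% against 0.103%). In PI2 replicate 1 it was lower (0.0321% against 0.0366%), and the G90 glands had 0.531% against 0.508% and 0.0582% against 0.0444%. At the study's limit of 25% mitochondrial UMIs, L20 replicate 1 kept 294 of its 370 dividing nuclei and 12193 of its 12927 nuclei, a dividing share of 2.41%. L20 replicate 2 kept 146 of 155 dividing nuclei, L0 replicate 2 kept 13 of 16 and PI2 replicate 2 kept 18 of 21. In the other glands all dividing nuclei stayed. The part of this in the results by lineage and by gene was not tested. These parts also move with how many nuclei of each kind a library holds, and luminal nuclei were 7.90% of all kept nuclei in L20 replicate 2 against 75.3% in G90 replicate 2.

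Macrophages, which clear debris and milk remnants in the gland, included dividing nuclei in all 10 glands. At L20, 51 of 453 macrophage nuclei (11.3%) in replicate 1 and 48 of 2115 (2.27%) in replicate 2 were dividing. They made up 13.8% and 31.0% of the dividing nuclei of these glands, against 3.50% and 13.8% of all their kept nuclei. At PI7, 23 of 901 (2.55%) and 6 of 459 (1.31%) were dividing, which was 21.5% and 27.3% of the dividing nuclei there. The remaining glands had 1 to 11 dividing macrophage nuclei each. CD163, a scavenger receptor, had a UMI in 78.4% of the dividing and 80.3% of the other macrophage nuclei of L20 replicate 1, and in 81.3% and 91.6% in replicate 2. In PI7 replicate 1 it was seen in 30.4% of 23 dividing and 65.6% of the other macrophage nuclei, and in PI7 replicate 2 in 50% of 6 and 71.3%. Summed over the measured macrophage markers, dividing macrophage nuclei lay below the other macrophage nuclei in 5 of 5 glands with at least 10 of them. They were at 0.409 to 0.747 of the level of the others in CPM. The luminal markers were not raised in them either, at 0.529 to 1.0 of the level in the other macrophage nuclei. The same marker lists had placed the nuclei, and a shallow nucleus needs a higher CPM to show 2 genes of a list. These marker levels are thus not independent of the placing and are a description.

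The B and plasma cell list is small, and its dividing shares were highest in the L0 glands. In L0 replicate 1, 14 of 73 such nuclei (19.2%) were dividing, and in L0 replicate 2, 4 of 21 (19.0%). At G90 the shares were 7.14% (5 of 70) and 12.5% (3 of 24), and after thinning the stage means were 12.5% at L0 and 10.8% at G90. B and plasma nuclei were 12.8% and 25% of the dividing nuclei of the L0 glands, against 0.825% and 0.16% in the G90 glands. T and NK nuclei were dividing at 2.96% and 3.62% at G90 (15 and 5 nuclei), and 5 of only 21 were dividing in L20 replicate 1 (23.8%). These lists had fewer than 50 nuclei in some glands and were not tested by stage.

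**Figure D4:**
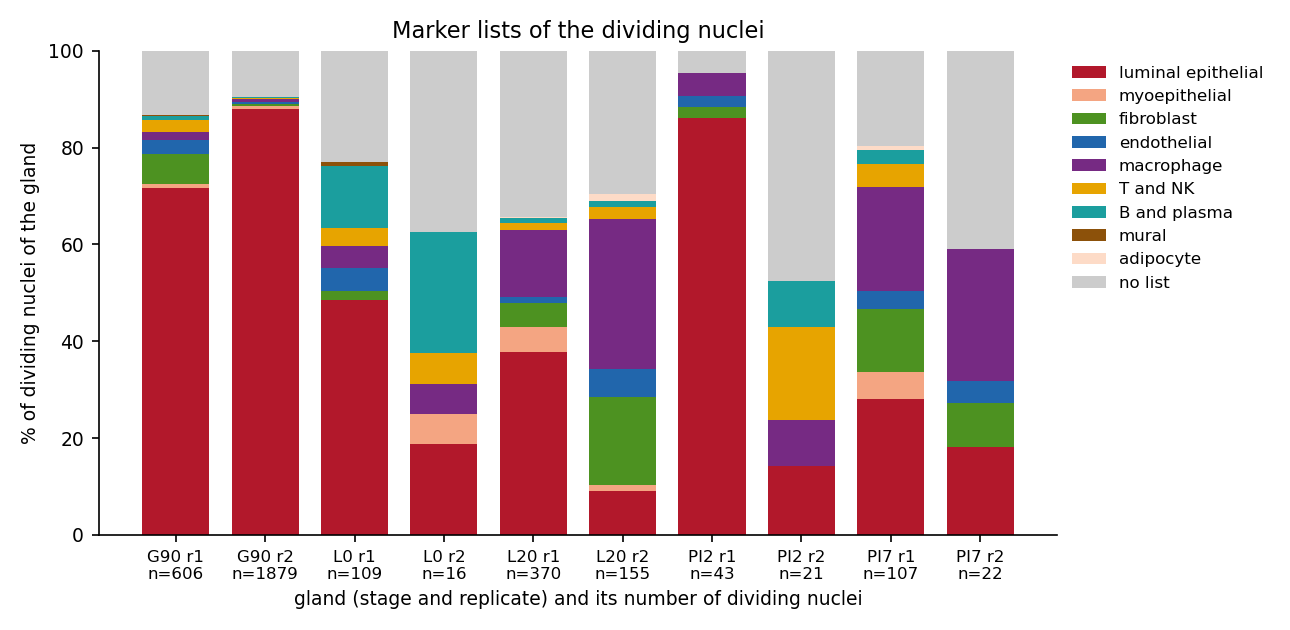
Make-up of the dividing nuclei of each gland by marker list, in percent of the gland's dividing nuclei, which range from 16 to 1879. The luminal part is 71.6% and 88.0% at G90, and the macrophage part is 31.0% in L20 replicate 2 and 27.3% in PI7 replicate 2.

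The genes that went with division were described in luminal nuclei of the G90 glands, dividing against other nuclei of the same gland, as log2 differences of CPM with 1 added. The rule used this contrast, so no test is given. Of 16654 genes with at least 20 UMIs in each gland, 435 (2.61%) were higher by more than 1 in both glands and 68 (0.408%) lower by more than 1, around a median of -0.10. Most genes of S phase were higher. In the origin licensing list, which loads the helicase on DNA before replication, 14 of 15 genes were higher with a median of 1.97, led by MCM10 at 3.01 and 2.97 in the 2 glands. MCM7, a helicase subunit, was the exception at 0.27 and -0.22. All 22 genes of DNA synthesis that passed the minimum were higher, with a median of 2.06. POLQ, a repair polymerase, was at 292 against 10.2 CPM in replicate 1 and 311 against 13.9 CPM in replicate 2, and PCNA, the sliding clamp, differed by 1.35 and 1.18.

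The list medians were larger for genes of mitosis. The mitotic kinases and cyclins had 13 of 13 genes higher with a median of 4.14. BUB1, the checkpoint kinase, was at 245 against 4.60 CPM in G90 replicate 1 and 200 against 6.28 CPM in replicate 2, and CDK1, the kinase that starts mitosis, at 182 against 12.7 and 136 against 9.93 CPM. In the kinetochore list 11 of 12 were higher (median 3.77), with SGO1, a guard of chromosome cohesion, at 5.04 and 5.50. Spindle genes had 12 of 12 higher and the largest median of these lists, 4.60, with KIF23 at 5.77 and 5.0. Condensin had 7 of 7 (median 3.13), cytokinesis 6 of 6 (median 4.17, with ANLN at 5.08 and 4.60) and mitotic exit 6 of 6 (median 3.72, with CDCA8 at 4.63 and 3.95). None of these genes was used by the rule, but the rule chose nuclei by other genes of mitosis. The larger medians of the mitotic lists than of the S-phase lists follow in part from that choice and are a description. MKI67, the common marker of proliferation, was not found by symbol and is not analysed here.

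The genes of G1 and of the brakes on the cycle were mixed. Of 15 G1 cyclins and E2F genes 7 were higher, led by E2F8, a repressor that shuts off S-phase genes, at 4.96 and 4.66, its relative E2F7 at 4.13 and 3.42, and CCNE2, cyclin E2, at 3.17 and 2.45. CCND3, cyclin D3, was lower, at 123 against 272 CPM in replicate 1 and 129 against 186 CPM in replicate 2, and it was lower in 7 of 7 glands with at least 10 dividing luminal nuclei. Of the CDK inhibitors that passed the minimum, 2 of 5 were higher, CDKN2C at 2.90 and 2.22 and CDKN3 at 3.89 and 3.65. CDKN3 is a phosphatase that acts on CDKs.

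Milk genes in dividing luminal nuclei stayed near the level of their neighbours at G90. CSN1S1, the alpha-S1 casein, was at 1083 against 1297 CPM in G90 replicate 1 and 4311 against 5144 CPM in G90 replicate 2, and at 5652 against 6851 CPM in L0 replicate 1. No milk protein gene (0 of 4, median -0.27) and no milk fat gene (0 of 9, median -0.01) differed by more than 1 in both G90 glands. In L20 replicate 1 the gap was wider, with CSN1S1 at 58.9 against 275 CPM and CSN3, kappa casein, at 104 against 357 CPM. Summed milk protein genes were at 268 against 986 CPM in that gland and at 211 against 538 CPM in L20 replicate 2. CSN1S1 and CSN3 were lower in dividing nuclei in 7 of 7 glands, by 0.25 to 2.20 and by 0.14 to 3.13 on the log2 scale. The other milk protein genes measured, LALBA and CSN2, went both ways. LALBA was higher in dividing nuclei in G90 replicate 2 (102 against 55.4 CPM) and L0 replicate 1 (1119 against 666 CPM). CSN2 was higher in L0 replicate 1 (2549 against 2009 CPM). In the remaining glands both were lower or at 0.

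Of the 8 hormone receptor and signal genes measured, TNFSF11 was the 1 that was lower by more than 1 in both G90 glands. PGR, the progesterone receptor, was at 17.6 against 89.3 CPM in G90 replicate 1 and 3.13 against 6.83 CPM in replicate 2. TNFSF11 (RANKL), the signal that progesterone-sensing cells send to their neighbours, was at 15.5 against 72.2 and 1.38 against 7.25 CPM. PGR was lower in dividing luminal nuclei in 7 of 7 glands, as was NR3C1, the glucocorticoid receptor, though PGR in L0 replicate 1 differed by only -0.05 and NR3C1 in L20 replicate 1 by -0.04 on the log2 scale. Outside G90, PGR was near the floor in these nuclei, with 6 UMIs in L0 replicate 1, 5 and 2 at L20, 0 in PI2 replicate 1 and 2 in PI7 replicate 1. For this and the other counts of 7 of 7 glands, the share among all genes is not given. Outside G90, TNFSF11 had 0 or 1 UMI in the dividing luminal nuclei of each gland, and in L0 replicate 1 and PI2 replicate 1 the other nuclei were so low (3.57 and 3.51 CPM) that less than 1 UMI would be met at their level. ESR1, the estrogen receptor, was lower in 6 of 7, at 60.2 against 325 CPM in L20 replicate 2 and 103 against 318 CPM in PI7 replicate 1, with L0 replicate 1 the exception at 207 against 174 CPM. In PI7 replicate 1 the dividing luminal nuclei held more UMIs of myoepithelial markers (3207 CPM, 7 of 7 seen) than of luminal markers (2521 CPM), against 54.4 to 1288 CPM of myoepithelial and 1749 to 2923 CPM of luminal markers in the other 6 glands. The part of this in the counts over 7 glands was not tested. PRLR, the prolactin receptor, stood at 2122 against 2585 and 1613 against 1552 CPM. None of the 7 progenitor genes or 10 growth factor receptor genes passed the difference of 1 in both G90 glands, and ELF5 differed by -0.13 to -1.63 over the 7 glands. Luminal markers had a median of -0.23. Of the 8 luminal markers, 2 were lower in 7 of 7 glands, EPCAM and ELF5, and 0 were higher in all of them. The other luminal markers did not move 1 way in every gland. By share of nuclei with a UMI, EPCAM went the other way and was higher in dividing luminal nuclei in 7 of 7 glands. At G90 these shares were 47.0% against 44.2% and 58.2% against 45.8%, not scaled for depth. EPCAM and ELF5 had also helped to place nuclei on the luminal list, so their CPM is not independent of the placing.

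**Figure D5:**
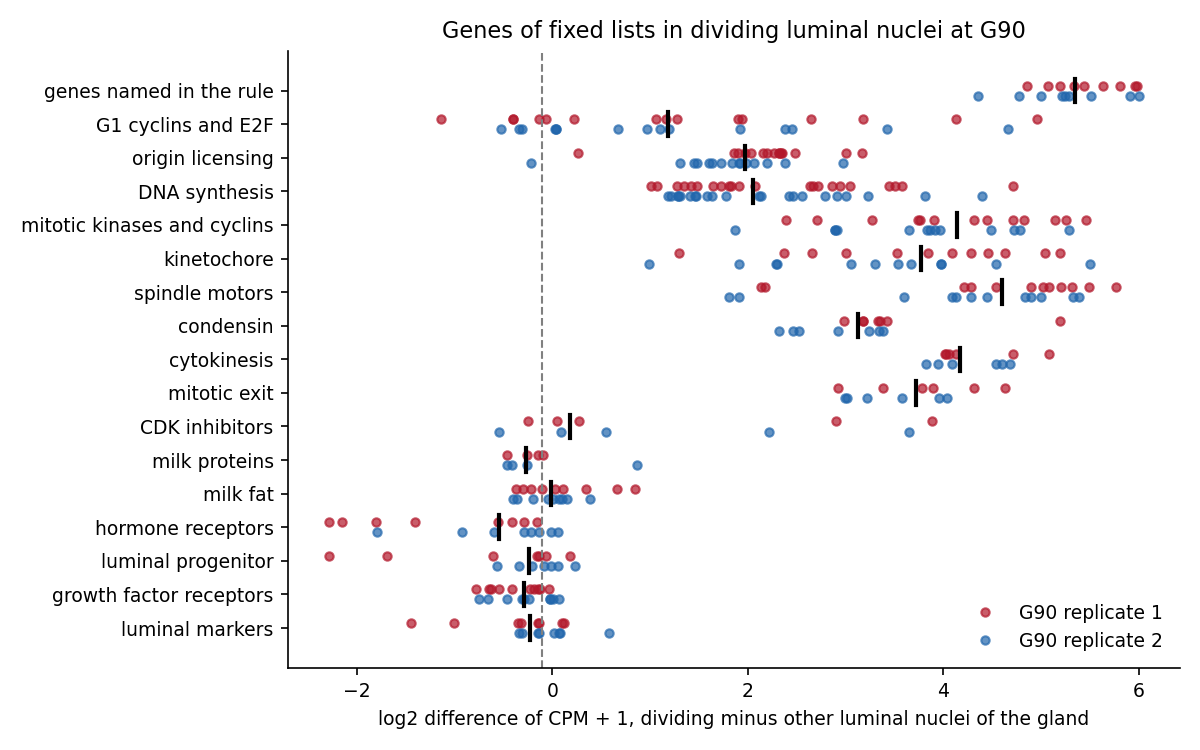
Log2 difference of CPM + 1 between dividing and other luminal nuclei for the genes of each list, with 1 point per gene and G90 gland, the list medians as black bars and the median of all genes (-0.10) as a dashed line. Lists of S phase centre near 2, lists of mitosis between 3.13 and 4.60, and lists of milk, hormone and growth factor genes near or below 0.

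The same cycle lists were higher in dividing nuclei of other lineages. In macrophage nuclei of the 5 glands with at least 10 dividing ones, the mitotic kinases were 7.59 to 11.8 times the level of the other macrophage nuclei and DNA synthesis genes 2.24 to 6.50 times. In fibroblast nuclei of 5 glands the mitotic kinases were 8.62 to 11 times and DNA synthesis genes 2.67 to 6.79 times the level of the other fibroblast nuclei. In these dividing fibroblast nuclei the fibroblast markers were at 0.349 to 1.09 times that level, lower in 3 of 5 glands, and the luminal markers at 0.451 to 1.76 times, higher in 2 of 5. The marker lists had also placed these nuclei, so their marker levels are a description. Over all dividing nuclei, the summed CPM of 38 S-phase genes was 0.253 to 0.489 of that of 50 mitotic genes, with 0.451 and 0.364 at G90 and 0.403 and 0.489 at L20. The L0 glands were the lowest, at 0.304 and 0.253, next to 0.314 in PI7 replicate 2, and the difference by stage was not tested.

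Between stages, dividing luminal nuclei could be compared at L20 against G90, the stages where both glands had at least 10 of them. UMIs were summed per gland and tested with edgeR's quasi-likelihood test, and a gene was called at a Benjamini-Hochberg adjusted p under 0.05 and a log2 fold change beyond 1. Tests between stages, here and below, cover dividing nuclei only and do not set apart changes that the other nuclei shared. Of 8082 genes tested 91 (1.13%) were called, 64 higher and 27 lower at L20. No gene of the cycle lists was called, from G1 cyclins (12 tested) to mitotic exit (6 tested). Nuclei of both stages had passed the same threshold on mitotic genes, so the lack of calls in these lists may follow in part from the choice. List medians lay between -0.67 for condensin and 0.27 for G1 cyclins and E2F, around -0.05 for all genes. Milk protein genes had a median of -3.64 with 0 of 4 called, and milk fat genes -1.78 with 0 of 10 called. The calls rest on few nuclei, 140 and 14 at L20. Without either L20 gland edgeR called 0 genes, with the remaining L20 gland assumed to vary like the glands of the other stages, and a minimum of 20 nuclei per gland leaves out L20 replicate 2 in the same way. Of the other fits, 297 genes were called without G90 replicate 1, 168 without G90 replicate 2 and 334 by DESeq2.

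Of the 10 called genes with the largest changes, 8 were higher and 2 lower at L20. MSTN, the growth inhibitor myostatin, was at 133 and 165 CPM in the G90 glands and at 0 in both L20 glands, at least 32.8-fold lower against a floor of 3 UMIs over the L20 glands (edgeR adjusted p = 0.0298). MMP16, a membrane metalloproteinase, was at 918 and 440 CPM at G90 and 11.4 and 7.53 CPM at L20, a log2 fold change of -5.98 ± 0.64 (SE). SPP1 (osteopontin), a secreted phosphoprotein, went from 17.2 and 28.7 CPM to 991 and 2477 CPM, a log2 fold change of 6.18 ± 0.74 (edgeR adjusted p = 0.0256). FDCSP, a small secreted protein, was at 0.418 and 0.376 CPM at G90 (1 and 3 UMIs) and at 319 and 82.8 CPM at L20. ANGPTL4, an inhibitor of lipoprotein lipase, was at 4.18 and 1.38 against 209 and 256 CPM, and SLC12A2, the sodium-potassium-chloride cotransporter, at 8.37 and 3.51 against 148 and 670 CPM. PRR16, TNIP3, S100A2 and CHSY3 were higher as well, with log2 fold changes of 7.73, 7.46, 6.33 and 6.14. Markers of some other cells were also higher in the dividing luminal nuclei at L20. The 7 measured myoepithelial markers summed to 161 and 54.4 CPM at G90 and 870 and 1288 CPM at L20, where CNN1 was at 0 in both glands, and COL17A1 was the 1 of 4 tested that was called. Macrophage markers summed to 41.4 and 16.4 CPM at G90 and 178 and 218 CPM at L20, where CSF1R, CD68 and C1QA were at 0 in replicate 2. B and plasma markers summed to 87.8 and 40.4 CPM at G90 and 118 and 151 CPM at L20. Adipocyte markers went the other way, at 241 and 403 CPM at G90 and 120 and 181 CPM at L20. Sums of fibroblast, endothelial, T and NK and mural markers overlapped between the stages. Their part in the calls was not tested.

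Over all dividing nuclei of a gland, whatever their lineage, 9881 genes were tested between adjacent stages. From G90 to L0 edgeR called 8 genes (0.081%), all higher. JCHAIN, the chain that joins secreted antibodies, was at 47.7 and 23.7 CPM at G90 and 1340 and 1371 CPM at L0, a log2 fold change of 5.19 ± 0.64 (edgeR adjusted p = 0.00349). IRF4, a factor of plasma cells, was at 2.06 and 1.29 CPM and then at 155 and 405 CPM, and POU2AF1, a B cell coactivator, at 1.37 and 1.64 and then at 153 and 112 CPM. SLC15A2, MAN1A1 and TOPAZ1 were higher too, with log2 fold changes of 5.13, 4.21 and 5.89. The B and plasma cell list, which includes JCHAIN, held 0.825% and 0.16% of dividing nuclei at G90 and 12.8% and 25% at L0, and its 7 measured markers summed to 135 and 55.2 against 1612 and 1843 CPM, with MS4A1 at 0 in all 4 glands. The part of this make-up in the calls was not tested. The count was 4 without L0 replicate 1, 1 without L0 replicate 2, 34 and 13 without G90 replicate 1 and 2, 39 and 36 without L20 replicate 1 and 2, and 22 and 19 without PI2 replicate 1 and 2.

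From L0 to L20 edgeR called 17 genes (0.172%), 5 higher and 12 lower. MSTN was at 181 and 247 CPM at L0 and at 0 in both L20 glands, at least 145-fold lower. CSN1S1 was at 3573 and 2247 CPM at L0 and 37.3 and 27.5 CPM at L20, a log2 fold change of -6.33 ± 1.09 (edgeR adjusted p = 0.0251). It was also lower at L20 in luminal nuclei that were not dividing. There it was at 6851 CPM in L0 replicate 1 and at 275 and 339 CPM in the L20 glands. PIK3C2G, a lipid kinase, IRF4, SLC15A2 and CCL28, a chemokine that draws antibody-making cells, were lower, with log2 fold changes of -6.29, -5.77, -5.61 and -5.50. SPP1 was at 69.8 and 0 CPM at L0 and 1904 and 2954 CPM at L20, LGALS3 (galectin-3) at 5.17 and 0 against 190 and 403 CPM, LDHA (lactate dehydrogenase) at 12.9 and 0 against 168 and 584 CPM, and SMPDL3A at 2.59 and 0 against 184 and 199 CPM. Marker sums moved between these stages, and the L0 replicate 2 sums came from 16 nuclei. Macrophage markers were at 124 and 135 CPM at L0 and 581.9 and 1820 CPM at L20, and fibroblast markers at 409 and 0 against 591 and 1068 CPM. B and plasma markers were at 1612 and 1843 CPM at L0 and 141 and 398 CPM at L20, and luminal markers at 2077 and 1371 against 1040 and 453 CPM. Their part in the calls was not tested. Leaving out L0 replicate 1, L0 replicate 2 or L20 replicate 2 left 1, 3 and 6 calls, and leaving out G90 replicate 1 or 2 gave 96 and 106. Without L20 replicate 1, PI2 replicate 2 or PI7 replicate 2 there were 35, 26 and 27.

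No gene was called between L20 and PI2 (0.0%) or between PI2 and PI7 (0.0%) by edgeR, with 774 and 614 genes at an unadjusted p under 0.05. DESeq2 called 17 and 3. Without G90 replicate 1 or 2 edgeR called 15 and 17 genes from L20 to PI2 and 3 and 3 from PI2 to PI7, and without L20 replicate 1 it called 7 from L20 to PI2. In the PI2 and PI7 glands 21 to 107 dividing nuclei were summed per gland, so small sets stood behind these comparisons.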

How the data were processed

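Each library's deposited values are counts of UMIs per gene and nucleus, made by the authors with the CeleScope pipeline on the Sscrofa11.1 genome from GEXSCOPE single-nucleus libraries. The annotation release was not given in the sources used here. Nuclei needed at least 300 genes, and no limit on mitochondrial UMIs was set (at most 25%, the study's limit, was an alternative). The members, the gene lists and the contrast of G90 against the other stages were chosen with earlier results of these data known. Of 28711 gene identifiers, 12595 had no symbol.

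Shares per gland were compared with exact permutation tests over glands (Python 3.11.15, scipy 1.17.1), with Benjamini-Hochberg adjustment over lists. Intervals are exact Clopper-Pearson. UMIs summed per gland were tested with edgeR 4.0.16 (TMM, filterByExpr, quasi-likelihood, R 4.3.3) in 1 fit over the stages, with DESeq2 1.42.0 as an alternative, and the procedure was tested on simulated data. Planned fits of dividing luminal nuclei between adjacent stages could not be made, since only G90 and L20 had 10 such nuclei in both glands, and L20 against G90 was added. Genes were named by list, or, per contrast, as up to 10 called genes with a symbol, the largest fold change and no overlap between stages. The methods describe the samples of a stage as biological replicates, while the labels name no animals, so p-values measure the spread between these libraries. Doublets were not removed. Scrublet's automatic limit (scanpy 1.11.5) marked almost no nuclei in 8 of 10 libraries, so removal of the top 5% of scores was added after seeing the data. The deviations of same-numbered glands from their stage means had correlations from -0.288 to 0.127 over 10 stage pairs (11051 genes), with 3 above 0.1, so replicate numbers were not taken as pairs. That check used genes and not the dividing share, which was lower in replicate 2 than in replicate 1 at every stage but G90. Alternatives were another number of rule genes, other mitotic genes, thinning, stricter filters, single lineage markers, DESeq2, no filter on low counts and each gland left out.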

Additional observations from a re-analysis of the deposited data

Results flagged for a closer look

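Barcodes outside the gland nuclei met the same rule, in milk cells and tissue sections that entered no comparison above, each a single library. In the G90 section, where a spot covers a small region that can hold several cells, 171 of 4718 spots (3.62%, exact 95% interval 3.11 to 4.2%) had UMIs of at least 3 rule genes. Of these spots, 71 were on the luminal list and 47 on the fibroblast list. The PI2 section had 2 of 2198 such spots (0.0910%). Its spots held a median of 6097.5 UMIs against 8063.5 in the G90 section. Among milk cells, 116 of 17630 (0.658%, 0.544 to 0.789%) met the rule at L0, of which 99 were on the luminal and 9 on the macrophage list. At L20, 30 of 14554 milk cells (0.206%, 0.139 to 0.294%) met it, of which 18 were on the macrophage and 7 on the T and NK list and 2 on the luminal list. With 1 library each, these shares have no replicate check.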

How the results depend on the processing

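The excess of G90 over the other stages kept its direction and its exact p of 0.0222 under all 10 alternatives other than leaving out a gland, and left-out glands gave 4.48 to 9.25 points, with p = 0.111 (exact permutation, the smallest possible) without either G90 gland. The test by stage stayed under 0.05 in 11 of 12 alternatives. With the replicate number as a block it gave 85.6% at an exact permutation p of 0.05, and left-out glands gave 84.7 to 97.4%. Within lists, the adjusted p passed after thinning for luminal (95.2%) and endothelial nuclei (83.5%) and with 3 list genes for luminal nuclei (92.8%), but there 2 lists, not 4, held enough nuclei and entered the adjustment. The unadjusted permutation p for luminal nuclei was 0.0148 and 0.0138, against 0.0127 as reported, and for endothelial nuclei 0.0476 after thinning, against 0.0815. With single markers, over 4 lists, luminal (88.7%) and myoepithelial nuclei (83.8%) passed. Left-out glands gave 94.2 to 98.4% (luminal), 46.3 to 96.9% (myoepithelial), 84.2 to 97.1% (fibroblast) and 65.4 to 96.2% (endothelial). Adjusted permutation p passed without G90 replicate 1 for luminal and myoepithelial nuclei (both 0.0444), without L20 replicate 2 for luminal and fibroblast nuclei (both 0.0254) and without L0 replicate 2 for endothelial nuclei (0.0296). Against luminal nuclei, the sign turned for myoepithelial nuclei after thinning (0.329 points), with 3 list genes (0.620) and without G90 replicate 1 (0.596), for mural nuclei after thinning (-0.301) and without G90 replicate 2 (-0.334), for macrophages with single markers (-0.155) and for T and NK nuclei without L20 replicate 1 (-0.525). None of these passed its test. Without the top 5% of Scrublet scores the fibroblast (-1.73) and adipocyte (-2.41) differences passed, and without PI7 replicate 1 the adipocyte difference did (-2.62). Left-out glands gave -0.521 to 0.596 (myoepithelial), -0.334 to 0.884 (mural), -0.525 to 2.72 (T and NK) and -2.62 to -1.17 (adipocyte). In the make-up of dividing nuclei, thinning called the myoepithelial part (94.3%), and left-out glands gave 80.2 to 97.1% for the macrophage part, called at 95.5% without L20 replicate 2.

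Counts of called genes moved with the processing. For dividing luminal nuclei, L20 against G90, they were 334 with DESeq2, 798 with no filter on low counts, 157 in a fit of the 2 stages, 1367 at unadjusted p, 215 with the replicate block, 140 without the top Scrublet scores, 0 with at least 20 nuclei per gland and 0 to 297 with a gland left out. For all dividing nuclei from G90 to L0 they were in the same order 93, 187, 120, 931 and 14 with the block, 1 with at least 20 nuclei and 1 to 39 with a gland left out. From L0 to L20 they were 90, 186, 81, 921 and 41, then 3 and 1 to 106. From L20 to PI2, DESeq2 called 17, no filter 64 and unadjusted p 774, with 0 to 17 over left-out glands. From PI2 to PI7 these were 3, 22, 614 and 0 to 3. The cause of these moves was not tested, beyond the smaller or larger sets of nuclei, genes and glands that each choice leaves. Scrublet's automatic calls and at least 5 nuclei per gland were not run, the latter because it added no comparison. The number of nuclei limits the shares of L0 replicate 2, PI2 and PI7 replicate 2, which rest on 16 to 43 dividing nuclei.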
